A study of Mus musculus with 8 samples.

Results

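The Smad genes encode the intracellular transducers of transforming growth factor β (TGFβ), activin and bone morphogenetic protein (BMP) signaling. They were followed here with Smurf1 and Smurf2, whose products are ubiquitin ligases that act on Smads and on their receptors. The set was listed by gene name and not by a threshold on measured values, but earlier results of these data were known when it was chosen. It holds 8 Smad genes and 2 Smurf genes. Of all 19937 genes on the arrays with a probe set of their own, 10 are members, and 11 of the 21640 probe sets with 1 gene symbol belong to them, since Smurf2 has a second one.

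RNA came from NMuMG cells, an untransformed line from the normal mouse mammary gland that undergoes epithelial-mesenchymal transition under TGFβ, and the cells used were the subclone NMuMG/E9. All cells had been transfected with siRNA. There were 4 groups of 2 Affymetrix arrays each, namely a control siRNA (siControl) without TGFβ, a pool of siRNAs against Klf4 (siKlf4) without TGFβ, siControl with 2 ng/ml TGFβ for 2 days, and siKlf4 with the same TGFβ treatment. Whether replicate arrays stem from separate transfections is not given in the sources used here, and p-values therefore cover only the spread between arrays, which may be technical.

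Receptors for TGFβ and activin phosphorylate Smad2 and Smad3, and those for BMPs phosphorylate Smad1, Smad5 and Smad9 (also called Smad8). The phosphorylated Smads bind Smad4, the common partner, and enter the nucleus to regulate target genes. Smad6 and Smad7 inhibit the pathway, Smad7 mainly by occupying the receptors and by bringing Smurf1 and Smurf2 to them, and Smad7 transcription is itself a known early target of TGFβ signaling. In mammary epithelium, TGFβ acts through these proteins in growth arrest and in epithelial-mesenchymal transition.

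Values are log2 array values made by the Robust Multi-Array method (RMA), and a difference of 1 on this scale is a doubling of the signal. A difference was called at an adjusted p under 0.05 in limma, with Benjamini-Hochberg adjustment over all 19937 genes. Array medians were 4.90 to 5.0, and no member fell among the dimmest 30% of genes. Replicate arrays correlated with r of 0.997 to 0.998 over genes. The number of arrays limits the precision.

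The labels were compared with the data first. Klf4 was lower in the arrays labelled siKlf4 than in those labelled siControl without TGFβ, with a log2 difference of −0.54 (limma adjusted p = 0.00369). With TGFβ, the difference in Klf4 was −0.13 (limma adjusted p = 0.444). Klf4 was also lower in the arrays labelled with TGFβ than in those without, with differences of −1.05 in siControl (limma adjusted p = 3.6e-04) and −0.63 in siKlf4 (limma adjusted p = 0.00295). Of the 20 measured genes that Smads activate after TGFβ, which are described further on, 15 were higher in the arrays labelled siKlf4 in either comparison, whereas 1 was higher and 3 were lower in the siControl arrays labelled with TGFβ than in those without. Of all genes, 9.98% and 12.3% were higher in the siKlf4 comparisons, and 5.81% were higher and 6.65% lower in the latter. These values do not settle whether the siRNA and TGFβ labels are crossed in the deposit. If the siKlf4 arrays without TGFβ and the siControl arrays with TGFβ were exchanged, each difference given for the siKlf4 label would be one for TGFβ, and the reverse. Groups are therefore named as labelled throughout, and each direction holds only for the arrays so labelled.

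Of the epithelial markers, Krt8, Krt18 and Cdh1 were high, with Krt8 group means from 13.1 to 13.4. Epcam, Esrp1 and Cldn7 lay below the array medians in every group, at 3.96 to 4.01, 3.85 to 3.92 and 4.33 to 4.49. The mean log2 value of the 10 epithelial markers was 8.26 to 8.40 over the arrays. The mean was 4.31 to 4.49 for the 5 endothelial, 4.01 to 4.18 for the 5 adipocyte, 4.95 to 5.35 for the 6 leukocyte, 5.02 to 5.49 for the 7 fibroblast and 4.96 to 5.32 for the 6 basal markers. Ptprc, of the leukocyte list, and Lum, the dimmest of the fibroblast list, lay between 3.67 and 3.79 and between 2.74 and 2.91 in the group means. Several other markers of these lists were brighter, and some moved with a label. With siKlf4, 2 of the 7 fibroblast markers were higher without TGFβ, Col1a1 (group means 6.41 and 7.54) and Pdgfrb (4.75 and 5.48), and with TGFβ Col1a1 was higher and Thy1 lower. Col1a1 is also in the list of TGFβ targets described further on. Of the 6 leukocyte markers, Csf1r was higher with siKlf4 at either TGFβ label (5.62 and 5.99, then 5.84 and 6.84), and Cd68 passed with TGFβ (5.82 and 6.43) but not without it (7.12 and 7.52). With the TGFβ label, Cd68 and Cd14 were lower in siControl (7.12 and 5.82, and 7.48 and 6.65), and in siKlf4 Cd68 was lower, Csf1r higher and Pdgfrb lower. Of the 6 basal markers, Acta2, which is also a TGFβ target, was higher with siKlf4, at 5.32 and 7.17 without TGFβ and 5.22 and 7.43 with it, and Krt5 was lower, at 6.08 and 5.37 and at 6.04 and 5.23. Of the 10 epithelial markers, Krt7, Krt8 and Krt18 were higher and Krt19 and Ocln lower with siKlf4 at either TGFβ label, with differences without TGFβ from −0.99 for Krt19 to 1.11 for Krt7. In siKlf4, Cdh1 was higher and Krt7 lower with the TGFβ label. No endothelial or adipocyte marker was called in these 4 comparisons. Between the siRNA labels without TGFβ, the shares called were 28.6% (fibroblast), 16.7% (leukocyte), 33.3% (basal) and 50% (epithelial), beside 19.7% of all genes. With TGFβ, they were 28.6%, 33.3%, 33.3% and 50% in that order, beside 24.2%. For the TGFβ label, they were 0%, 33.3%, 0% and 0% in siControl, beside 12.5%, and 14.3%, 33.3%, 0% and 20% in siKlf4, beside 12.9%. The part of these markers in the results below was not tested.

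Between the siRNA labels, 5 of the Smad and Smurf genes were higher with siKlf4 at either TGFβ label, and none was lower by the test. The share of all genes called in both comparisons at once was not counted, here or for the lists further on. Without TGFβ, 6 of the 10 members were higher than in siControl, namely Smad1, Smad5, Smad6, Smad7, Smurf1 and Smurf2, where 19.7% of all genes were called, 9.98% higher and 9.71% lower. With TGFβ, 5 of the 10 were higher, the same genes without Smad6, against 24.2% of all genes called, 12.3% higher and 11.9% lower. The median log2 difference over the members was 0.38 without TGFβ and 0.31 with it, beside medians of 0.00 and −0.03 over all genes. With only the 4 arrays without TGFβ in the fit, 5 members were called, since Smad6 no longer passed. In bulk RNA, a change in the share of cells that express a gene and a change in RNA per cell cannot be told apart.

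**Figure D1:**
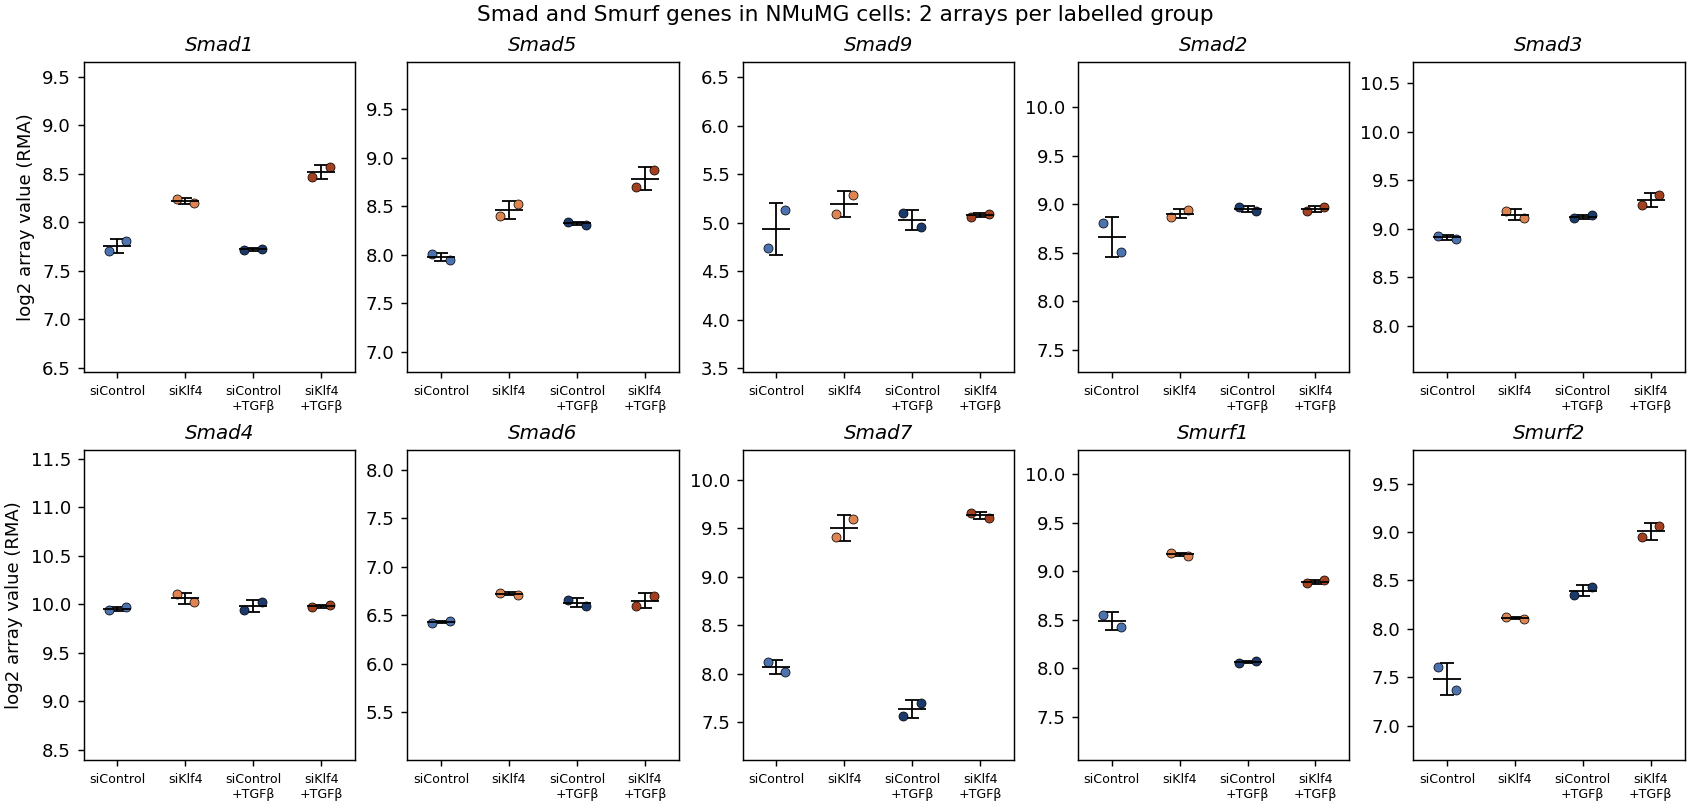
Log2 array values (y axis, RMA) of the 10 genes in the 4 labelled groups (x axis). Each circle is 1 array, with 2 per group, long horizontal lines the group mean and error bars the SD, and all panels span the same number of log2 units at different levels. Smad3, Smad5, Smad7, Smurf1 and Smurf2 separate without overlap by both labels, Smad1 separates by siRNA label at either TGFβ label, and Smad4 hardly moves. Groups without overlap were found for 49.1% to 62.4% of all genes in a comparison, and Smad3 passed the test in none.

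The TGFβ label went with differences in both directions. In siControl arrays, Smad5 and Smurf2 were higher and Smad7 and Smurf1 were lower with TGFβ, 4 of 10 members against 12.5% of all genes, 5.81% higher and 6.65% lower. In siKlf4 arrays, Smad1, Smad5 and Smurf2 were higher and Smurf1 was lower, 4 of 10 members against 12.9% of all genes, 6.01% higher and 6.87% lower. Smad5, Smurf1 and Smurf2 were called in the same direction in both, and the share of all genes so called was not counted. The medians over the members were 0.14 and 0.09, beside 0.02 and −0.02 over all genes. Smurf2 differed by 0.91 in siControl and by 0.89 in siKlf4. Of these 8 calls, only that of Smurf2 in either comparison was kept whichever array was left out.

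**Figure D2:**
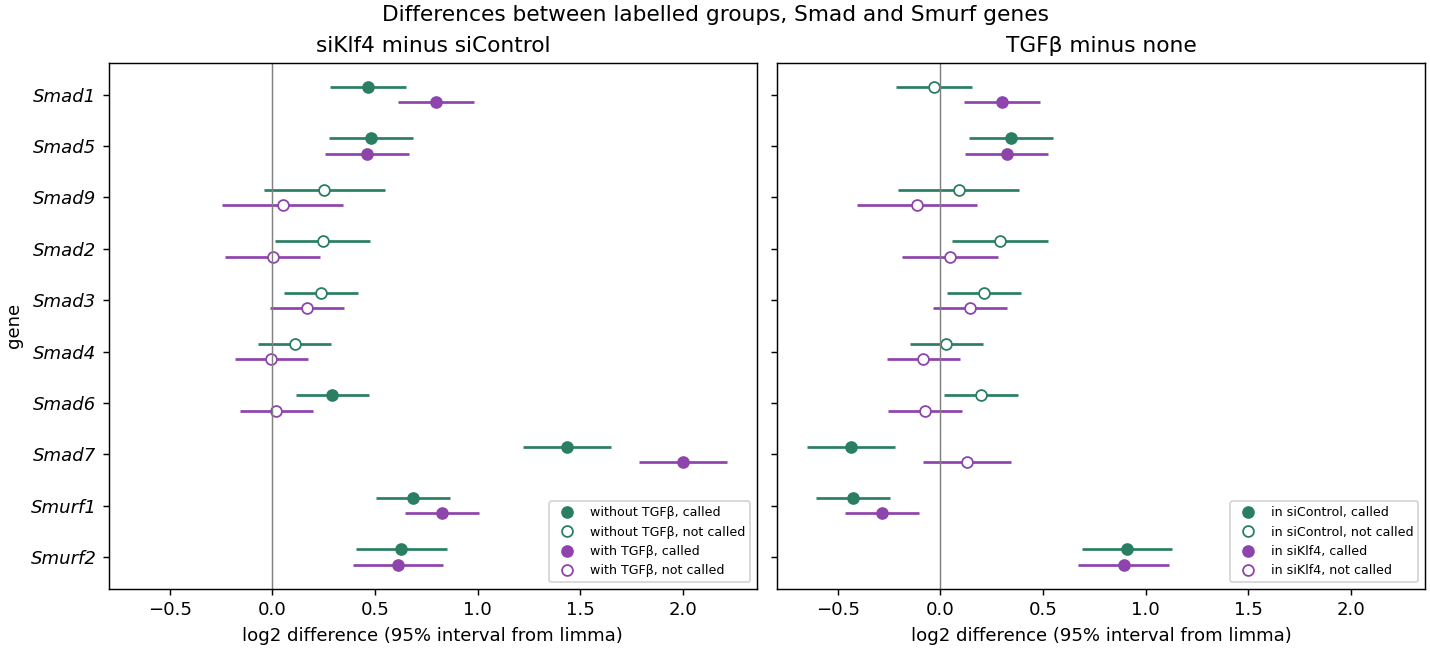
Log2 differences between labelled groups (x axis) for each gene (y axis), with the 95% interval from limma. The left panel shows siKlf4 minus siControl and the right panel TGFβ minus none, with filled circles for calls at an adjusted p under 0.05. On the left, Smad7 lies farthest from 0, and on the right, Smurf2 lies farthest to the right while Smurf1 lies to the left of 0.

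Smad2 and Smad3, the Smads that TGFβ and activin receptors phosphorylate, passed the test in no comparison. Smad2 had log2 values of 8.80 and 8.51 in untreated siControl, 8.87 and 8.93 in untreated siKlf4, 8.97 and 8.93 in TGFβ-treated siControl and 8.93 and 8.97 in TGFβ-treated siKlf4. The untreated siControl arrays were the lowest, and lay further apart than those of any other group. Between siKlf4 and siControl, the log2 difference of Smad2 was 0.25 without TGFβ (95% interval 0.01 to 0.48, limma adjusted p = 0.147) and 0.00 with it (−0.23 to 0.23, limma adjusted p = 0.994). Without siControl replicate 1, which leaves 1 array in that group, the difference without TGFβ became 0.39. The difference with the TGFβ label in siControl was 0.29 (limma adjusted p = 0.111), and became 0.44 without the same array. With all arrays, both differences passed with trend and robust options (limma adjusted p = 0.0467 and 0.0253), and the latter after quantile normalization (limma adjusted p = 0.0485).

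Smad3 had values of 8.93 and 8.89 in untreated siControl, 9.19 and 9.11 in untreated siKlf4, 9.11 and 9.14 in TGFβ-treated siControl and 9.24 and 9.34 in TGFβ-treated siKlf4. Both siKlf4 arrays lay above both siControl arrays at either TGFβ label, by 0.24 (95% interval 0.06 to 0.42, limma adjusted p = 0.0731) and 0.17 (−0.01 to 0.35, limma adjusted p = 0.184). With the TGFβ label, Smad3 differed by 0.21 in siControl (95% interval 0.03 to 0.39, limma adjusted p = 0.129) and by 0.15 in siKlf4 (−0.03 to 0.33, limma adjusted p = 0.333), and the first passed with trend and robust options (limma adjusted p = 0.0332). The siKlf4 difference of Smad3 without TGFβ passed with the same options (limma adjusted p = 0.0138), after cyclic loess normalization (limma adjusted p = 0.0430) and with the dimmest genes left out (limma adjusted p = 0.0438).

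Smad4, which pairs with the Smads of either branch, had the narrowest range of the members. Its 8 values ran from 9.94 to 10.10, and neighboring groups overlapped in all 3 steps of the order of their means. The untreated siKlf4 arrays, at 10.10 and 10.02, lay above those of untreated siControl, at 9.94 and 9.97. They also lay above those of TGFβ-treated siKlf4, at 9.97 and 9.99, and neither difference passed. The 95% interval of the siKlf4 difference ran from −0.07 to 0.29 without TGFβ and from −0.18 to 0.17 with it.

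The BMP-branch Smads Smad1 and Smad5 were higher with siKlf4. Smad1 had log2 values of 7.70 and 7.80 in siControl and 8.24 and 8.19 in siKlf4, and with TGFβ of 7.71 and 7.73 in siControl and 8.46 and 8.57 in siKlf4. The 4 siControl arrays overlapped whatever their TGFβ label, and all siKlf4 arrays lay above them. The difference in Smad1 was 0.47 without TGFβ (standard error 0.0814, limma adjusted p = 0.00303), a 1.38-fold change, and 0.80 with it (limma adjusted p = 8.7e-05), a 1.74-fold change. Between siKlf4 arrays with and without TGFβ, Smad1 differed by 0.30 (limma adjusted p = 0.0413), and this call was lost without any 1 of the siKlf4 arrays or of the siControl arrays with TGFβ, with adjusted p from 0.0791 to 0.265 in limma.

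Smad5 was higher with either label. Its values were 8.01 and 7.95 in untreated siControl, 8.39 and 8.53 in untreated siKlf4, 8.33 and 8.31 in TGFβ-treated siControl and 8.70 and 8.87 in TGFβ-treated siKlf4. The 4 groups did not overlap in any step of this order. The siKlf4 difference was 0.48 without TGFβ (standard error 0.0901, limma adjusted p = 0.00436) and 0.46 with it (limma adjusted p = 0.00454), and the latter call was lost without replicate 2 of siKlf4 with TGFβ (0.38, limma adjusted p = 0.0526). With the TGFβ label, Smad5 was higher by 0.34 in siControl (limma adjusted p = 0.0386) and by 0.32 in siKlf4 (limma adjusted p = 0.0476). The first of these was lost without any 1 array but those of untreated siKlf4 (adjusted p from 0.0505 to 0.188 in limma), and the second without any 1 array at all (adjusted p from 0.0551 to 0.314 in limma).

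Smad9, the remaining BMP-branch Smad, was near the array medians, at 4.74 to 5.28 over the 8 arrays, and passed no test. The untreated siControl arrays, at 4.74 and 5.13, spanned the values of most others. Its siKlf4 difference without TGFβ was 0.25 (95% interval −0.04 to 0.55, limma adjusted p = 0.246), and became 0.45 without siControl replicate 2 (limma adjusted p = 0.0341).

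Of the inhibitory Smads, Smad7 showed the largest siKlf4 differences among the members and Smad6 a small one. Smad7 had values of 8.12 and 8.02 in untreated siControl, 9.41 and 9.60 in untreated siKlf4, 7.57 and 7.70 in TGFβ-treated siControl and 9.66 and 9.61 in TGFβ-treated siKlf4. All 4 groups were separate, with the siKlf4 arrays at the top and the siControl arrays with TGFβ at the bottom. The difference was 2.71-fold without TGFβ (log2 difference 1.44, standard error 0.0946, limma adjusted p = 1.1e-05) and 4.0-fold with it (2.00, limma adjusted p = 1.1e-06). Leaving out any 1 array left the first between 1.34 and 1.53 on the log2 scale.

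The TGFβ label went with lower Smad7 in siControl, where the gene fell by 0.44 on the log2 scale (limma adjusted p = 0.0169), a 1.35-fold decrease. This call was lost without replicate 1 of siControl (limma adjusted p = 0.0892), replicate 1 of siControl with TGFβ (limma adjusted p = 0.137) or its replicate 2 (limma adjusted p = 0.0524). In siKlf4, the difference was 0.13 (95% interval −0.09 to 0.34, limma adjusted p = 0.514). The test of the difference between these effects, the interaction, gave 0.56 (95% interval 0.26 to 0.87, unadjusted p = 0.00228, limma adjusted p = 0.0895), which did not pass.

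Smad6, which opposes mainly the BMP branch, had values of 6.43 and 6.44 in siControl and 6.73 and 6.72 in siKlf4, and under TGFβ of 6.66 and 6.60 in siControl and 6.60 and 6.70 in siKlf4. The untreated siControl arrays were lower than all the others. Its difference without TGFβ was 0.29 (standard error 0.0788, limma adjusted p = 0.0288), a 1.22-fold change. This call was lost when either replicate of siControl (limma adjusted p = 0.0919 and 0.0781), of siKlf4 (0.0902 and 0.0797) or of siControl with TGFβ (0.0534 each) was left out. It was also lost with trend and robust options (limma adjusted p = 0.0526) and with array weights (limma adjusted p = 0.0752). With TGFβ, the difference was 0.02 (95% interval −0.16 to 0.20, limma adjusted p = 0.911).

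Smurf1 and Smurf2, the ubiquitin ligases that Smad7 recruits to receptors, were both higher with the siKlf4 label and moved in opposite directions with the TGFβ label. Smurf1 had values of 8.55 and 8.42 in untreated siControl, 9.18 and 9.16 in untreated siKlf4, 8.05 and 8.07 in TGFβ-treated siControl and 8.87 and 8.91 in TGFβ-treated siKlf4. No groups overlapped, and the order of their means was siKlf4, siKlf4 with TGFβ, siControl and siControl with TGFβ. The siKlf4 difference was 1.61-fold without TGFβ (log2 difference 0.69, standard error 0.0798, limma adjusted p = 2.8e-04) and 1.77-fold with it (0.83, limma adjusted p = 6.1e-05).

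With the TGFβ label, Smurf1 fell by 0.42 in siControl (limma adjusted p = 0.00874) and by 0.28 in siKlf4 (limma adjusted p = 0.0493) on the log2 scale. The first call was lost without replicate 1 of siControl (limma adjusted p = 0.0524), replicate 1 of siControl with TGFβ (limma adjusted p = 0.0723) or its replicate 2 (limma adjusted p = 0.0609). The second was lost without any 1 of the siKlf4 arrays or of the siControl arrays with TGFβ, with adjusted p from 0.0918 to 0.232 in limma.

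Smurf2 had values of 7.60 and 7.37 in untreated siControl, 8.12 and 8.11 in untreated siKlf4, 8.35 and 8.43 in TGFβ-treated siControl and 8.95 and 9.06 in TGFβ-treated siKlf4. The groups rose in that order without overlap, and either label alone went with a higher value. The siKlf4 difference was 1.55-fold without TGFβ (log2 difference 0.63, standard error 0.0976, limma adjusted p = 0.00154) and 1.53-fold with it (0.61, limma adjusted p = 0.00140). The TGFβ difference was 1.88-fold in siControl (0.91, limma adjusted p = 6.4e-04) and 1.86-fold in siKlf4 (0.89, limma adjusted p = 4.6e-04). The interaction was −0.02 (95% interval −0.33 to 0.30, limma adjusted p = 0.979).

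The second, dimmer Smurf2 probe set, with a mean log2 value of 6.43, differed in the same directions. Its siKlf4 differences were 0.48 without TGFβ (limma adjusted p = 0.0594) and 0.79 with it (limma adjusted p = 0.00463). Its TGFβ differences were 0.97 in siControl (limma adjusted p = 0.00437) and 1.28 in siKlf4 (limma adjusted p = 8.9e-04).

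No member passed the test of the interaction at the threshold, where limma called 1.52% of all genes, 0.547% higher and 0.978% lower. Smad1, Smad6 and Smad7 had an unadjusted p under 0.05. The share of all genes under that unadjusted threshold was not counted, so this count cannot be set against the 1.52%. The interaction of Smad1 was 0.33 (unadjusted p = 0.0179, limma adjusted p = 0.260) and that of Smad6 was −0.27 (unadjusted p = 0.0369, limma adjusted p = 0.366). With trend and robust options, Smad7 passed (limma adjusted p = 0.00908), and without moderation of the variances no member did. Thus a difference of the siKlf4 effect between the TGFβ labels was not shown for Smad6, although it was called only without TGFβ.

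Counted by groups that do not overlap, 9 of the 10 members were separate between siKlf4 and siControl without TGFβ and 6 with it, against 49.1% and 62.4% of all genes. Between arrays with and without TGFβ, 7 were separate in siControl and 9 in siKlf4, against 51.6% and 49.2% of all genes.

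RefSeq promoters of the mouse assembly GRCm38.p6 were available for 7 of the 10 members. Those of Smurf1, Smurf2, Smad1 and Smad5 are shown because these genes were called higher in the arrays labelled siKlf4 at either TGFβ label. Smad7 was called so too, but no promoter was available for it. Each run holds the 180 bases from 250 to 71 bases upstream of the transcription start, at chr5:144965901-144966080 (minus strand), chr11:106920786-106920965 (minus strand), chr8:79399499-79399678 (minus strand) and chr13:56702760-56702939 (plus strand, the most upstream of 3 starts). Capitals mark CACCC, the core that Klf factors bind, GGGCGG, the GC box of Sp and Klf factors, CAGAC, the core of the Smad binding element, and GGCGCC, a GC-rich Smad motif, on either strand.
Smurf1: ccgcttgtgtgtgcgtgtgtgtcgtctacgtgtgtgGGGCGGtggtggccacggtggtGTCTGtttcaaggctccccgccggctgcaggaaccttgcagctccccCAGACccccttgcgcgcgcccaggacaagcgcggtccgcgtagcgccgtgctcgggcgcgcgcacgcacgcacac
Smurf2: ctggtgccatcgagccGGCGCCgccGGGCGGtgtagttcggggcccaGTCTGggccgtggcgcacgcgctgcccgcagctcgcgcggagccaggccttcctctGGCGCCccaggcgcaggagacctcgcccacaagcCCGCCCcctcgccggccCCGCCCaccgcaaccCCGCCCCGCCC
Smad1: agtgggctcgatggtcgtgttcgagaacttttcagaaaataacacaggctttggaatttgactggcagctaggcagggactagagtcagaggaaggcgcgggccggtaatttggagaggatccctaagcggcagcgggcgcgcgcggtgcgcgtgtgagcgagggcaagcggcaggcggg
Smad5: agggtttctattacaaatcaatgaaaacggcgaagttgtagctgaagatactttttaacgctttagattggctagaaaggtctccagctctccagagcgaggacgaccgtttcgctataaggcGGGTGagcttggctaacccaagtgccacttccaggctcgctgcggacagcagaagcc

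The Smurf2 window held 5 matches to GGGCGG, the last of them sharing a base with the one before, with 2 to GGCGCC and 1 to CAGAC. The Smurf1 window held 1 match to GGGCGG and 2 to CAGAC. The Smad5 window held 1 match to CACCC, and that of Smad1 held none of the 4 motifs. Of the members not shown, Smad3 had 2 matches to GGGCGG, Smad6 had 4 and 1 to CACCC, and Smad9 had 3 and 1 to CACCC, and matches to different motifs overlapped in 1 pair. Of 32851 RefSeq windows of the same length and position, 40.8% held CACCC, 21.1% held GGGCGG, 33.2% held CAGAC and 6.19% held GGCGCC, each on either strand. A match describes the letters only, and binding was not measured on these arrays.

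Genes around the Smads were counted in 9 lists by role, which hold 155 genes, of which 147 were measured. Across them, 42 genes were higher and 12 lower in siKlf4 than in siControl without TGFβ, and 45 higher and 19 lower with it. The shares called, 36.7% and 43.5%, stand beside 19.7% and 24.2% of all genes. With the TGFβ label, 13 were higher and 6 lower in siControl and 14 higher and 7 lower in siKlf4, which is 12.9% and 14.3% beside 12.5% and 12.9% of all genes.

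**Figure D3:**
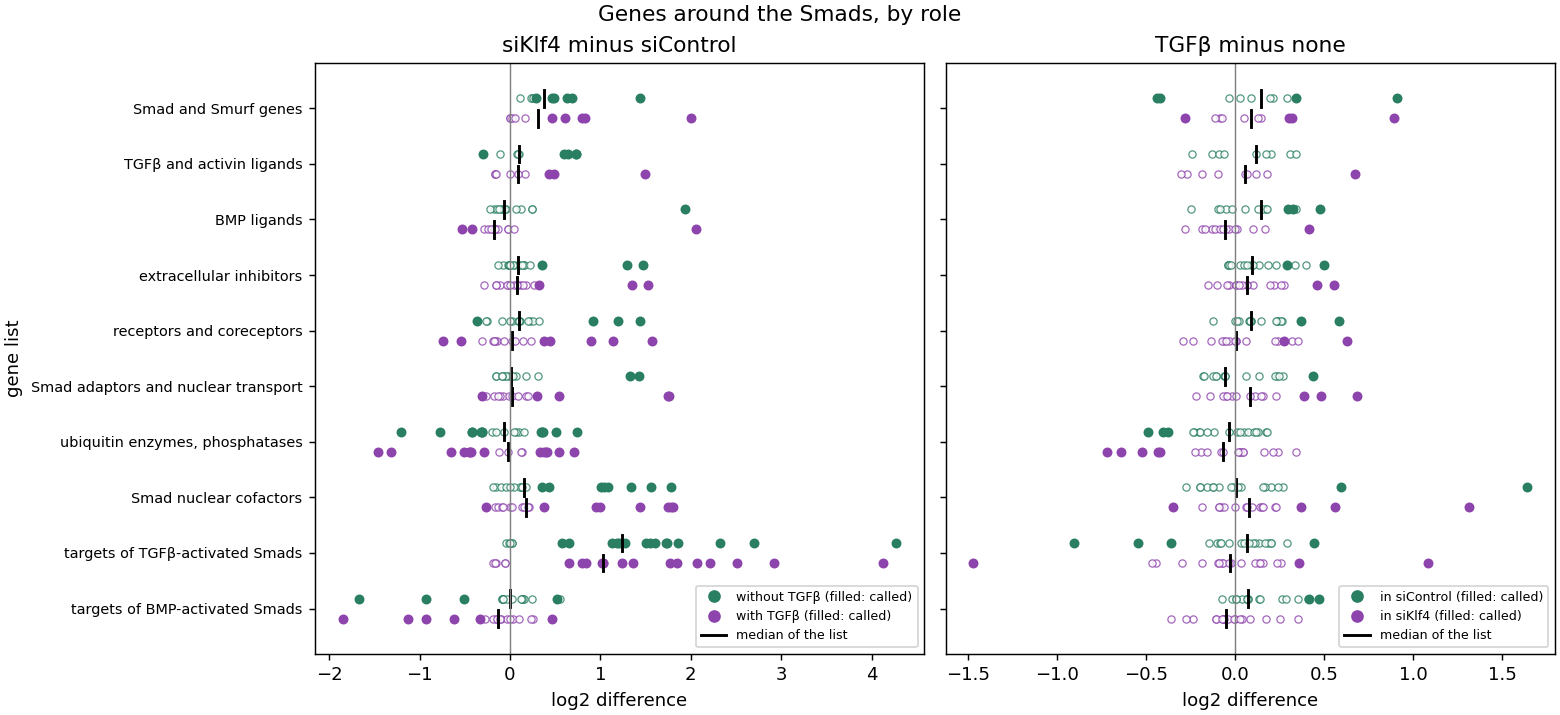
Log2 differences (x axis) of the members and of 9 lists of genes around them (y axis), with 1 circle per gene, filled where called at an adjusted p under 0.05, and a vertical bar at the median. The left panel shows siKlf4 minus siControl and the right panel TGFβ minus none. On the left, the targets of TGFβ-activated Smads lie farthest to the right, with medians of 1.24 and 1.03, and on the right the medians lie between −0.07 and 0.14.

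Among the 9 ligands of the TGFβ and activin branch, 4 were higher and 1 lower in siKlf4 without TGFβ, 55.6% beside 19.7% of all genes. With TGFβ, 3 were higher and 0 lower, 33.3% beside 24.2%. These 3 were higher at either TGFβ label, while Inhbb was higher without TGFβ and did not pass with it. Inhba, the activin A subunit, had values of 4.87 and 4.96 in untreated siControl, 5.73 and 5.56 in untreated siKlf4, 4.78 and 4.87 in TGFβ-treated siControl and 6.28 and 6.35 in TGFβ-treated siKlf4. It rose with siKlf4 by 0.73 in untreated and by 1.49 in TGFβ-treated arrays, and Inhba was the only ligand of these to pass the interaction test (0.76, limma adjusted p = 0.0253), a call lost without siControl replicate 2, siKlf4 replicate 2 or any 1 array with TGFβ (adjusted p up to 0.131 in limma). Tgfb1 differed by 0.73 and 0.49 in the same comparisons. Tgfb2 differed by 0.60 and 0.43, the latter lost without replicate 1 of siControl with TGFβ or replicate 2 of siKlf4 with TGFβ (adjusted p up to 0.118 in limma).

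Of the 14 genes in the BMP ligand list, Bmp1 alone was higher at either TGFβ label, by 1.93 and 2.05. Lower by the test were 0 without TGFβ and 2 with it. The shares called were 7.14% and 21.4%, beside 19.7% and 24.2% of all genes. Bmp1 encodes a procollagen protease and not a ligand. Bmp4, a ligand of the branch, was lower by the test in siKlf4 only with TGFβ, where it fell by 0.53 on the log2 scale (limma adjusted p = 0.00176), and its difference without TGFβ was −0.22 (limma adjusted p = 0.121). The interaction of Bmp4 was −0.30 (limma adjusted p = 0.364). Of the 17 extracellular inhibitors, 3 were higher and none lower at either label, 17.6% beside 19.7% and 24.2% of all genes, and 2 were higher with TGFβ when any 1 array with TGFβ was left out, since Twsg1 then no longer passed. Fst and Fstl3, which bind activin, rose by 1.30 and 1.47 without TGFβ and by 1.35 and 1.53 with it.

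Of the 17 receptor and coreceptor genes, 3 were higher and 1 lower without TGFβ, 23.5% beside 19.7% of all genes, and 5 were higher and 2 lower with it, 41.2% beside 24.2%. Acvr1, a type I receptor of the BMP branch, rose by 1.44 and 1.57, Bmpr2, its type II partner, by 1.19 and 0.90, and Tgfbr1, the type I receptor of TGFβ, by 0.92 and 1.14. These 3 calls were kept in either comparison without any 1 array. The coreceptor Tgfbr3 fell by 0.73 with TGFβ, and its difference without TGFβ of −0.36 passed (limma adjusted p = 0.0164), but not without siControl replicate 2 or siKlf4 replicate 1 (adjusted p up to 0.0884 in limma). The count of higher receptors with TGFβ was 3 without replicate 1 of siControl with TGFβ or either replicate of siKlf4 with TGFβ, and without TGFβ it was 5 without siKlf4 replicate 1.

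Of 15 adaptor and nuclear transport genes, 2 were higher and 0 lower in siKlf4 without TGFβ, 13.3% beside 19.7% of all genes. With TGFβ, 4 were higher and 1 lower, 33.3% beside 24.2%. Pmepa1 and Ldlrad4 were higher at either label. Both encode membrane proteins that sequester Smad2 and Smad3 from the receptor, and Pmepa1 is a TGFβ target. Pmepa1 had values of 10.04 and 9.94 in siControl and 11.32 and 11.52 in siKlf4, a difference of 1.43, and its difference with TGFβ was 1.76. Ldlrad4 rose by 1.33 and 1.75. All siKlf4 arrays lay above all siControl arrays for both genes, as for Smad7.

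The 19 further ubiquitin enzymes and phosphatases of Smads moved in both directions, with 5 higher and 7 lower without TGFβ and 6 higher and 8 lower with it. The shares called were 63.2% and 73.7%, beside 19.7% and 24.2% of all genes. All 12 called without TGFβ were called in the same direction with it, and the share of all genes for which this held was not counted. Nedd4l, a ubiquitin ligase that acts on activated Smad2 and Smad3 and is of the same family as the Smurfs, fell by 1.21 and 1.32 on the log2 scale, from 8.87 and 8.61 in siControl to 7.53 and 7.53 in siKlf4. Ctdspl, a phosphatase of the Smad linker, fell by 0.77 and 1.46, and Rnf11, a partner of the Smurfs, rose by 0.74 and 0.71. The calls of these 3 genes were kept in either comparison without any 1 array, but the counts were not. Without TGFβ, 2 were higher without siControl replicate 2 or siKlf4 replicate 1, 3 were lower without siControl replicate 1 and 4 without siKlf4 replicate 2. With TGFβ, 2 were higher without replicate 2 of siControl with TGFβ and 3 without replicate 2 of siKlf4 with TGFβ.

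Nuclear cofactors were mostly higher or not called, with 8 higher and 0 lower of 18 in siKlf4 without TGFβ, and 7 higher and 1 lower with it. The share called was 44.4% in either comparison, beside 19.7% and 24.2% of all genes. The lower gene was Sp1, named after its values were seen, at −0.27, and this call was lost without any 1 array with TGFβ. Skil, a corepressor that binds Smads and is itself a TGFβ target, had values of 9.09 and 9.01 in untreated siControl, 10.48 and 10.30 in untreated siKlf4, 9.0 and 8.92 in TGFβ-treated siControl and 10.74 and 10.79 in TGFβ-treated siKlf4. Its differences were 1.34 and 1.80, and those of the DNA-binding partners Runx1 and Zeb2 were 1.79 and 1.75, and 1.57 and 1.78. Hdac1, a corepressor subunit, was higher with the TGFβ label, by 1.64 in siControl and 1.31 in siKlf4 (limma adjusted p = 3.5e-05 and 4.7e-05). It was also among the 8 higher with siKlf4 without TGFβ, by 0.35 (limma adjusted p = 0.0174), a call lost without siControl replicate 1 or siKlf4 replicate 2 (adjusted p up to 0.0964 in limma) and with only the 4 arrays without TGFβ in the fit (limma adjusted p = 0.0766).

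The targets of TGFβ-activated Smads showed the highest median of the 9 lists between siKlf4 and siControl. Of the 20 measured, 15 were higher and 0 lower without TGFβ, and the same counts held with TGFβ and for genes higher in both. The share called was 75% in either comparison, beside 19.7% and 24.2% of all genes. The medians were 1.24 and 1.03, beside 0.00 and −0.03 over all genes. Il11, a cytokine, rose by 4.27 and 4.13, Fn1, fibronectin, by 2.70 and 2.93, Pdgfb, a growth factor, by 2.32 and 2.06, and Tagln, an actin-binding protein, by 1.51 and 2.51. With the TGFβ label, 1 was higher and 3 lower in siControl, 20% beside 12.5% of all genes, with a median of 0.07. In siKlf4, 2 were higher and 1 lower, 15% beside 12.9%, with a median of −0.03. With 1 array left out, these counts were 0 to 1 higher and 2 to 3 lower in siControl and 0 to 2 higher and 1 to 3 lower in siKlf4.

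Of the 18 measured targets of BMP-activated Smads, 1 was higher and 3 were lower in siKlf4 without TGFβ, 22.2% beside 19.7% of all genes, and 1 was higher and 5 lower with it, 33.3% beside 24.2%, with medians of −0.00 and −0.13. Id1 and Id2, inhibitors of helix-loop-helix factors and the classical targets of this branch, fell by 0.92 and 1.67 on the log2 scale without TGFβ and by 1.13 and 1.85 with it. Id1 had values of 9.30 and 9.07 in untreated siControl, 8.26 and 8.26 in untreated siKlf4, 9.15 and 9.08 in TGFβ-treated siControl and 7.98 and 7.99 in TGFβ-treated siKlf4. The gene that was higher was Id3, named after its values were seen, at 0.52 and 0.46, and it did not pass with TGFβ when any 1 siKlf4 array or any 1 siControl array with TGFβ was left out. Without TGFβ it did not pass without siControl replicate 2 or siKlf4 replicate 2.

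Over the 8 arrays, the members fell into a few shared patterns. These are Pearson correlations within 1 set of arrays whose groups differ, given as a description. Smad7 followed Smad1 (r = 0.940) and Smurf1 (r = 0.934). Smad3 followed Smad5 (r = 0.953) and Smurf2 (r = 0.948), and Smad5 followed Smurf2 (r = 0.925). Smurf1 and Smurf2 had r = 0.172 with each other.

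For the 3 members with the widest range of group means, the genes most like them were taken from the 1769 others whose own group means ranged over at least 1 on the log2 scale. Smad7 was followed most closely by Mal, Rnf19b, Rsu1, Ppp1r13l and Pxdc1, with r from 0.996 to 0.997. Smurf2 was followed by Rab10, Dcaf12, Ube2d1, Sparc and Sec23a, with r from 0.992 to 0.996, and Smurf1 by Add2, Prss23, Clasp1, Sh3bgrl2 and Nfix, with r from 0.995 to 0.998. Such values were common, since 219 genes had r above 0.95 with Smad7, 73 with Smurf2 and 81 with Smurf1.

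**Figure D4:**
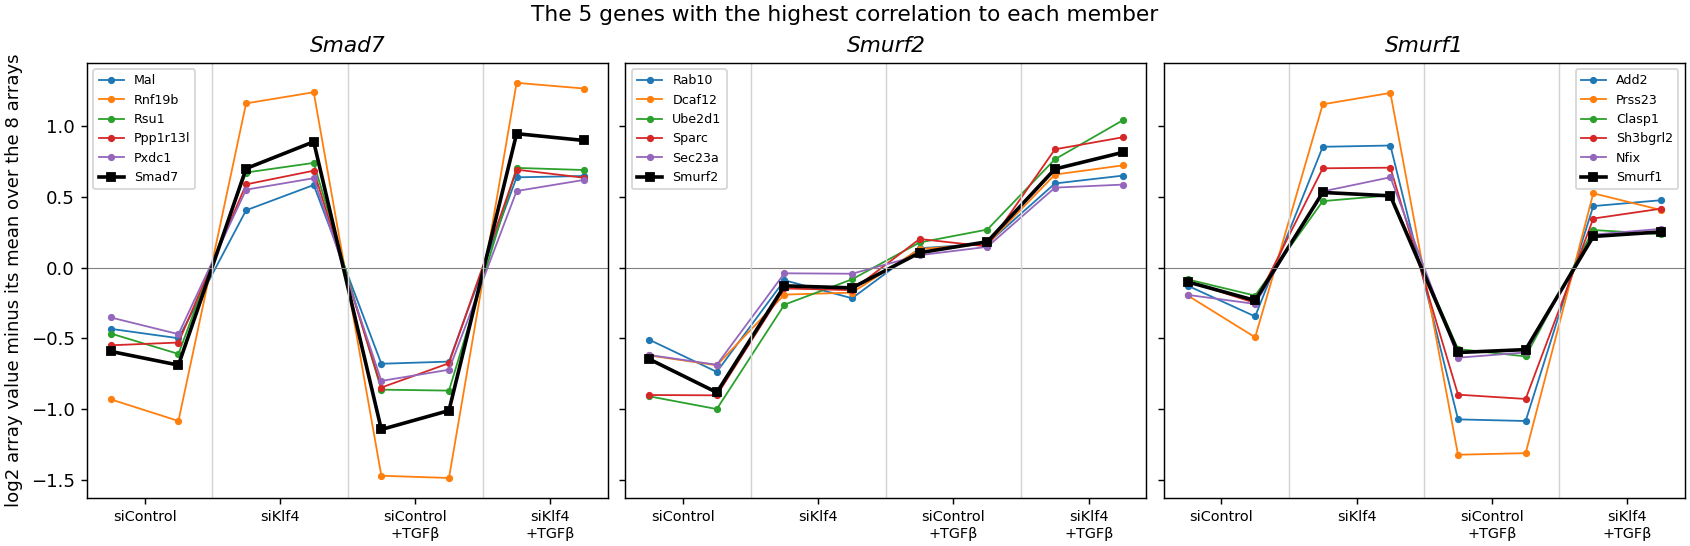
Log2 array values minus each gene's mean over the 8 arrays (y axis) for Smad7, Smurf2 and Smurf1 (black squares) and the 5 genes with the highest correlation to each (colored circles), over the 2 arrays of each labelled group (x axis). Lines only join the points of a gene. Smad7 is high in both siKlf4 groups, Smurf2 climbs from siControl to siKlf4 with TGFβ, and Smurf1 is highest in siKlf4 without TGFβ.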

How the data were processed

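Affymetrix gene arrays measured RNA of NMuMG cells in 4 groups of 2. The authors normalized the intensities by RMA (submitters' processing notes: oligo 1.14.0) and deposited 1 value per probe set and array. Their range was taken to mean that the deposited values are log2 values. The annotation build is not given in the sources used here. Groups and replicates came from the labels. The platform annotation gave 1 symbol for 21640 of 34760 probe sets, several for 1321 and no entry for 11799. The probe set with the highest mean stood for each of 19937 genes, 19855 of which matched RefSeq by Entrez ID.

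Differences were fitted in R 4.3.3 with limma 3.58.1, with 1 mean per group, eBayes (4 residual and 4.93 prior degrees of freedom) and Benjamini-Hochberg adjustment. The script was tested on simulated data. Alternatives were a replicate block, only the arrays compared, trend and robust options, an unmoderated analysis of variance, array weights, other normalizations, a filter on dim genes, other uses of probe sets, a stricter threshold and each array left out. The members and lists were chosen with earlier results of these data known. Named were all members, Klf4, up to 4 called genes per list with the largest differences, any list gene called in opposite directions with and without TGFβ, and the 5 genes most like each of 3 members. Clone and prediction names were left out.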

Additional observations from a re-analysis of the deposited data

How the results depend on the processing

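Over the 10 members, 5 comparisons and all alternatives, 871 values kept their side of the threshold, 63 lost a call and 11 gained one. No value called in the main fit or in the alternative changed direction. Changes of direction among values called in neither were not counted. The number of members called between siKlf4 and siControl stayed within 1.5 times under every alternative run, at 5 to 6 without TGFβ and 4 to 5 with it when 1 array was left out. For TGFβ against none in siControl, the 4 members called became 2 without moderation and 2 at an adjusted p under 0.01, and ranged from 1 to 4 with 1 array left out. All genes called there were 2484, and became 1489 and 1207 under these settings and 1090 to 2545 with 1 array left out. In siKlf4, the 4 members became 2 with the replicate block, 1 with only the 4 arrays compared, 1 without moderation, 2 with every probe set tested, 1 at an adjusted p under 0.01 and 1 to 3 with 1 array left out. All genes called there were 2569, and became 1702 without moderation, 1402 at 0.01 and 1274 to 2700 with 1 array left out. For the interaction, trend and robust options gave 1 member, and the 304 genes called became 760 with these options, 0 without moderation, 37 at 0.01 and 28 to 214 with 1 array left out. The cause was not tested.

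Replicate numbers were not used to pair the samples in the main fit. Deviations of same-numbered arrays correlated with r = 0.38 between siControl and siKlf4 without TGFβ. In the other pairs of groups, r ran from −0.05 to 0.04. Whether the untreated arrays share a replicate effect was not tested beyond the fit with a replicate block. The arrays give no signal over background per probe set, and 2 arrays a group limit the precision. With 1 array left out, the lone array was assumed to vary like the other groups. The interaction uses all arrays and has no fit on 4.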
